A study of Mus musculus with 20 samples.

Results

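The Serpina cluster on mouse chromosome 12 is a row of related genes for serpins, the secreted protease inhibitors that liver releases into plasma, and 10 of them are described here across resting and regenerating liver. The 10 genes were taken by name from tables of 46603 identifiers: Serpina1a, Serpina1b, Serpina1c, Serpina1d, Serpina1e, Serpina3k, Serpina3m, Serpina3n, Serpina6 and the pseudogene Serpina4-ps1. All 10 were among the 14661 genes that passed the filter on low counts. The genes were chosen by name with earlier results of these data in view, and Serpina4-ps1 was selected on its lower level in the mutant livers, so its values are given without a test, and 9 genes were tested.

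The data are read counts from poly(A) RNA of 20 liver libraries of male mice aged 2 months, in 4 groups of 5. Wild-type (WT) mice were C57BL/6J bought from The Jackson Laboratory. EedHepKO (KO) mice carried Alb:Cre and Eed alleles in which loxP sites enclose exons 3 and 6 (strain #022727). Their Cre recombinase is driven by the albumin promoter, and the labels describe loss of functional EED in hepatocytes. Which other liver cells keep Eed was not tested. The labels give the strain of both genotypes as C57BL6/J, while KO mice came from crosses inbred further, so genotype cannot be told apart from colony. Lobes 1, 2 and 3, removed at partial hepatectomy (PHx), were the baseline samples. Lobes 4, 5 and 6 were taken after PHx at 30 h (1 mouse of each genotype), 40 h (2 of each) or 48 h (2 of each), so stage cannot be told apart from lobe. EED is a subunit of polycomb repressive complex 2 (PRC2), which places a repressive methyl mark on histone H3. The design asks what loss of hepatocyte PRC2 does to expression in liver before and during regeneration.

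A serpin traps a protease with an exposed stretch near its carboxyl end, the reactive centre loop, which the protease cuts as bait. The bait residues decide which protease is caught, and mice, unlike humans, carry several copies of the alpha-1-antitrypsin gene (Serpina1a to Serpina1e) and of the antichymotrypsin family (Serpina3). Serpina6 encodes corticosteroid-binding globulin, the plasma carrier of glucocorticoids. Hepatocytes are the main source of these proteins, and Serpina3n is a known acute phase gene.

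Total counts ran from 21634890 to 30461351 per library, and levels are given as CPM, counts scaled to a TMM-adjusted total of 1000000. Eed itself was at 16.8 ± 1.09 CPM (SD, n = 5) in WT and 5.64 ± 1.44 in KO at baseline, and at 18.4 ± 3.98 and 4.62 ± 1.13 after PHx, with no overlap between genotypes. All 9 hepatocyte markers with a matching symbol passed the filter. Their summed level was 135570.0 to 156334 CPM in WT and 82991 to 111722 in KO at baseline, and 3 of the 9 (Apoa1, Apob, Cyp2e1) were lower in KO. In bulk tissue, fewer hepatocytes and less of an RNA per hepatocyte cannot be told apart. Stellate and fibroblast markers moved the other way, with a sum of 164 to 265 CPM in WT and 435 to 590 in KO and 6 of 9 higher in KO. Macrophage markers summed to 166 to 286 CPM in WT and 416 to 545 in KO, with 3 of 9 higher. Endothelial markers (172 to 201 CPM in WT, 216 to 252 in KO, 1 of 7 higher) also did not overlap at baseline. Neither did neutrophil markers (1.19 to 2.15 and 3.71 to 11.4, 2 of 5 tested higher). Markers of cycling cells were apart as well (2.06 to 4.42 and 18.8 to 105, 2 of 6 higher). Cholangiocyte markers summed to 23.3 to 58.2 CPM in WT and 55.6 to 359 in KO, with overlap and 1 of 6 tested higher. After PHx the hepatocyte sum was 81239 to 125078 CPM in WT and 44098 to 101061 in KO, with overlap and 1 of 9 lower. The stellate and fibroblast sum was then 177 to 243 CPM in WT and 286 to 506 in KO, with 4 of 9 higher. Of 6 tested cholangiocyte markers 5 were higher in KO at that stage (122 to 571 CPM against 20.97 to 239, with overlap). For comparison, the baseline test called 11.1% of all genes higher in KO and 4.89% lower. The test after PHx called 16% higher and 8.2% lower. The part of these shifts in the results below was not tested.

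The genes lie in GENCODE M21 (mm10) as follows. On the minus strand are Serpina6 (ENSMUSG00000060807, chr12:103646630-103657212), Serpina1b (ENSMUSG00000071178, chr12:103728156-103830373), Serpina1d (ENSMUSG00000071177, chr12:103763594-103773592). These are followed on the same strand by Serpina1a (ENSMUSG00000066366, chr12:103853589-103863562), Serpina1c (ENSMUSG00000079015, chr12:103894926-103904887) and Serpina1e (ENSMUSG00000072849, chr12:103946931-103958975). On the plus strand are Serpina4-ps1 (ENSMUSG00000092075, chr12:104080649-104086724), Serpina3k (ENSMUSG00000058207, chr12:104338486-104346144), Serpina3m (ENSMUSG00000079012, chr12:104338486-104394257) and Serpina3n (ENSMUSG00000021091, chr12:104406729-104414329). The annotated span of Serpina1b contains Serpina1d, and Serpina3k lies within that of Serpina3m on the same strand, so reads in shared exons cannot be assigned with certainty.

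The 5 Serpina1 copies are near-identical in coding sequence, which limits where a read can be placed. Their coding sequences each span 1239 bases in transcripts of 5 exons and share 96.3% to 98.5% of positions over the 10 pairs, while Serpina3k, Serpina3m and Serpina3n share 82.9% to 91.3%. Over the 5 copies, 86 coding positions (6.94%) differ. The 60 coding bases that differ most, positions 1101 to 1160 in the last exon, hold 18 of these positions against a median of 4 over all windows of that length. They lie 79 bases before the end of the coding sequence, the part of the gene that encodes the reactive centre loop. The stretch is shown because it sets the copies apart both as inhibitors and for read placement. Sequences are from GENCODE M21 transcripts (GRCm38, minus strand, written 5′ to 3′), with capitals at positions where the copies differ.
Serpina1a (chr12:103853757-103853816): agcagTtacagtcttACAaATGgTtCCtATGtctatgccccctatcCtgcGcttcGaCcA
Serpina1b (chr12:103728324-103728383): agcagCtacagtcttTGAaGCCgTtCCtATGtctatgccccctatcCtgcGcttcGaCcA
Serpina1c (chr12:103895094-103895153): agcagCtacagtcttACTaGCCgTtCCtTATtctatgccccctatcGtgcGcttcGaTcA
Serpina1d (chr12:103763762-103763821): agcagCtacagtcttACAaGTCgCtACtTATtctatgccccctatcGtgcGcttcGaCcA
Serpina1e (chr12:103947100-103947159): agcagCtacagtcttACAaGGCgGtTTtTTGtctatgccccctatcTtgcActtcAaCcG
Serpina1e has 24 coding bases found in no other copy, 8 of them inside this window, against 6 to 19 for the other 4 copies. The deposited counts keep uniquely mapped reads only. Of all 100-base windows of the annotated transcript, 85.2% of those of Serpina1e occur in no other gene's transcript, compared with 79.4% for Serpina1b, 70.7% for Serpina1d, 39.0% for Serpina1a and 30.7% for Serpina1c. The gene that shares the most windows with Serpina1a is Serpina1c, and for Serpina1c it is Serpina1a. The shares were 95.1% for Serpina3k, 93.9% for Serpina3m, 99.8% for Serpina3n and 100% for Serpina6 and Serpina4-ps1. Read length is not given in the sources used here, so levels of Serpina1a and Serpina1c are less complete than those of Serpina1e by an amount that is not known.

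The copies are also alike in a stretch upstream of their RefSeq start sites. RefSeq promoters (GRCm38.p6, 250 bases before to 50 after the annotated start) were present for 6 of the 10 genes. The 110 bases below end between 1 and 63 bases before the annotated start and match at 93.6% to 98.2% of positions over 10 pairs, with the 4 pairs that hold Serpina1d lowest (93.6% to 94.5%). The stretch was placed by a short sequence present in all 5 copies and bounded to align without gaps. Part of the high match is therefore set by that choice, and the stretch is shown to set the copies side by side. In M21 the stretches of Serpina1b and Serpina1e lie inside the longer annotated spans of those genes, and that of Serpina1d inside the span of Serpina1b. Capitals mark the 10 positions that differ.
Serpina1a (chr12:103863626-103863735): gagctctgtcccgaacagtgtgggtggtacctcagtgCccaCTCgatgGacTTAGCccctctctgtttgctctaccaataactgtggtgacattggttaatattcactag
Serpina1b (chr12:103738201-103738310): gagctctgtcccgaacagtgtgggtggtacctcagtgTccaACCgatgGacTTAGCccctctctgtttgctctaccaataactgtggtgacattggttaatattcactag
Serpina1c (chr12:103904963-103905072): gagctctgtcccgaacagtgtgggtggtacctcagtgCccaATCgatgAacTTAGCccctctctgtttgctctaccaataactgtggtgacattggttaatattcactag
Serpina1d (chr12:103773635-103773744): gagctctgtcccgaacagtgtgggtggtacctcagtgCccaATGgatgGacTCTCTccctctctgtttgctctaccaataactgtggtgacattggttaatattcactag
Serpina1e (chr12:103956961-103957070): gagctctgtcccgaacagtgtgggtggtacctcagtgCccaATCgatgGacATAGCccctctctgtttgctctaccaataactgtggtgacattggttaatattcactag
TTGCNNAA, a C/EBP-type motif searched on both strands, occurs in the full promoters of 4 of the 5 copies (not in Serpina1c) and in 10.8% of 32851 promoters of the same length. TTCNNNGAA, a STAT-type motif, occurs in none of the 5, nor in the Serpina3n promoter, and in 8.3% of all. No match overlapped another. These matches describe the letters and are not evidence of binding.

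Per kilobase of exon, the order of levels in resting WT liver put Serpina3k first at 8450 ± 608 CPM per kb (SD, n = 5) and Serpina1e second at 8293 ± 1276, and their libraries overlapped. Serpina1c (4198 ± 189), Serpina1d (2927 ± 204), Serpina1b (2493 ± 103.4) and Serpina1a (1666 ± 36.0) followed, with no overlap between neighbours. These levels rest on uniquely mapped reads over the length of all annotated exons. The order among the copies, in either genotype, thus also depends on read placement and on the length used. Serpina3n, Serpina4-ps1, Serpina3m and Serpina6 lay far lower, between 145 and 94.0 CPM per kb, and each overlapped the next. In resting KO liver Serpina3k was still first (4618 ± 1321) and Serpina1e stood in place 5 (1498 ± 755), with overlapping libraries from Serpina1c in place 2 down to Serpina1a in place 6. Together the 10 genes took 3.85% ± 0.175 of all counts in WT at baseline, 3.42% ± 0.475 in WT after PHx, 2.57% ± 0.374 in KO at baseline and 2.02% ± 0.481 in KO after PHx.

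**Figure D1:**
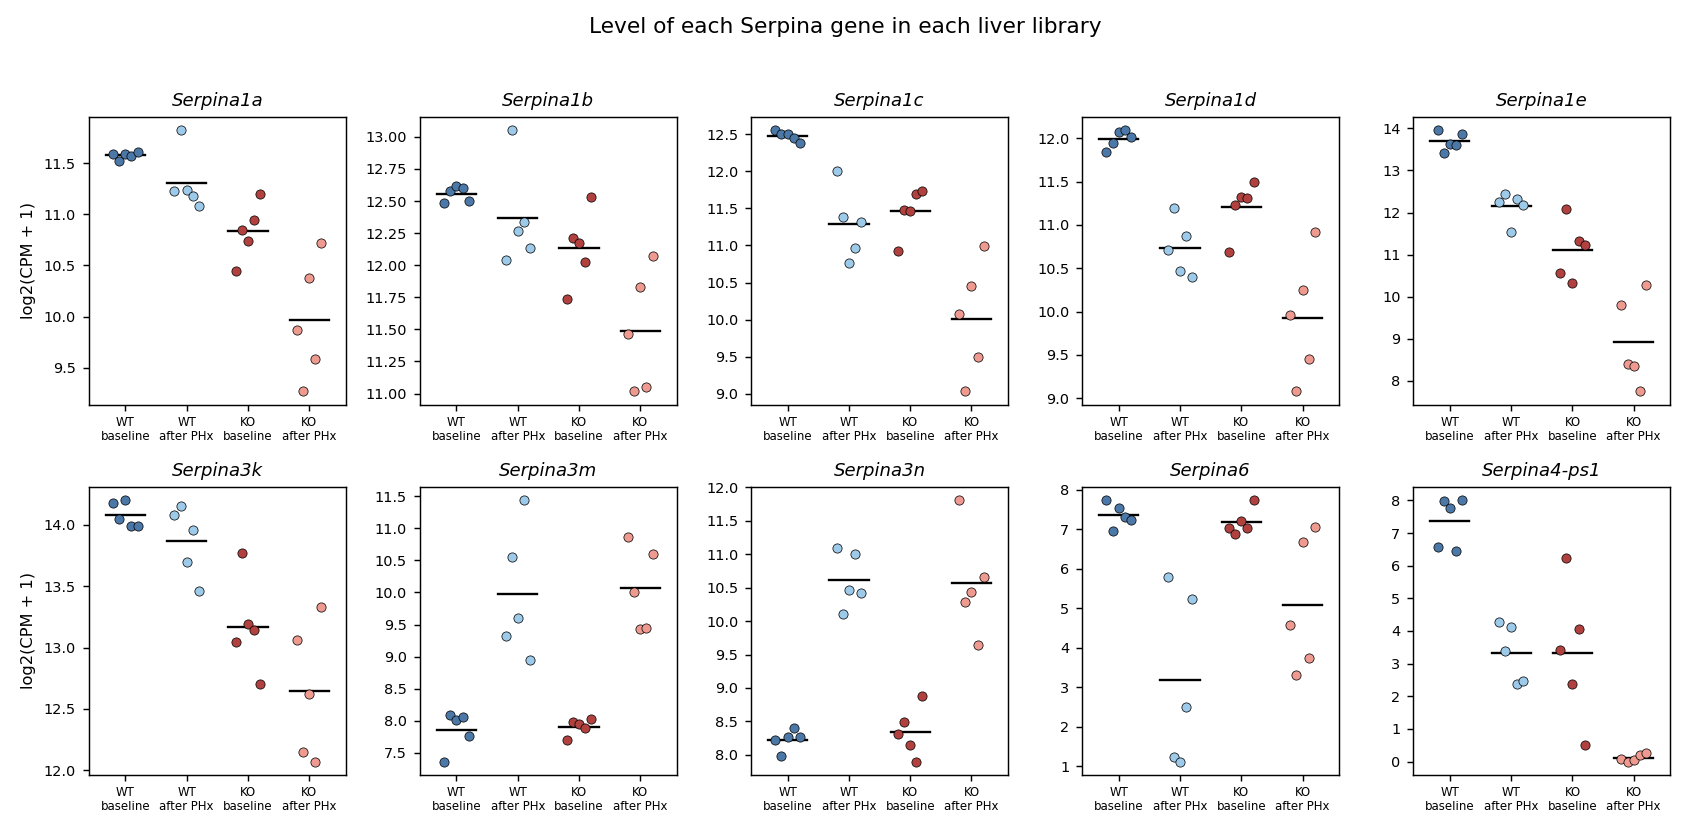
Each panel plots 1 gene, with log2(CPM + 1) on the vertical axis, 1 point for each of the 5 libraries of a group and a bar at the mean of those log values. By group mean, the 5 Serpina1 copies, Serpina3k and Serpina4-ps1 are highest in WT at baseline and lowest in KO after PHx. Serpina3m and Serpina3n are high after PHx in both genotypes.

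At baseline Serpina1a, Serpina1c, Serpina1e and Serpina3k were lower in KO liver, and Serpina1e had the lowest value of the 9 tested genes. Serpina1e stood at 15959, 10844, 12708, 12504 and 15032 CPM in WT baseline libraries 1 to 5, of which library 1 has no mouse number in its title, and at 1506, 4375, 1285, 2566 and 2382 in KO mice 7, 8, 10, 11 and 12. Every WT library lay more than 2 times above the highest KO library, that of mouse 8. The ratio of means was 5.53, with a log2 fold change of -2.47 (SE 0.43, adjusted p = 0.000581, edgeR quasi-likelihood test with Benjamini-Hochberg adjustment over all genes).

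Serpina1c, at 5713 ± 258 CPM in WT and 2867 ± 571 in KO, had a log2 fold change of -0.995 (SE 0.31, edgeR adjusted p = 0.0315). Serpina1a, at 3053 ± 66.0 and 1850.3 ± 349 CPM, had one of -0.72 (SE 0.24, adjusted p = 0.047). Neither gene's groups overlapped, as held for 27.9% of all genes. Serpina1d (-0.76, SE 0.27, adjusted p = 0.0634) and Serpina1b (-0.40, SE 0.24, 0.281) did not pass the test, and with a term for time Serpina1d did (0.0245). All KO libraries of Serpina1d lay below all WT libraries.

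Serpina3k, a plasma inhibitor that binds tissue kallikrein, measured 18584, 16930.0, 18845, 16274 and 16274 CPM in WT libraries 1 to 5. In KO mice 7, 8, 10, 11 and 12 it measured 8429.8, 13983, 9374, 9050.1 and 6660.1 CPM. The groups did not overlap, and edgeR gave a log2 change of -0.87 (SE 0.26, adjusted p = 0.0292). Serpina3m, Serpina3n and Serpina6 had values of 0.03 (SE 0.38), 0.15 (SE 0.31) and -0.17 (SE 0.82) in the same comparison and overlapping groups.

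In all, 4 of the 9 tested genes were lower in KO at baseline and 0 were higher, where 4.89% of all genes tested were lower, 11.1% higher and 16% were called in either direction. Their median log2 fold change was -0.72, against -0.03 for all genes. The calls of Serpina1a, Serpina1c and Serpina3k lie near the threshold. Without WT baseline library 1, 2, 3 or 4, or KO baseline library 7 or 10, only Serpina1e was called lower, and without WT 5, KO 8 or KO 11 there were 2 calls. Serpina1e kept its call in each of the 10 fits that left out a library of this comparison, between -2.79 and -2.27. Scaling by library size alone in place of TMM moved the median of all genes to 0.45, left Serpina1e as the 1 call, and turned the sign of the uncalled Serpina1b (0.07) and Serpina6 (0.31). Relative to the median of all genes, 7 of the 9 genes were below it under either scaling, and Serpina1e stood at -2.44 with TMM and -2.45 without.

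The mix of copies differed between the genotypes, which is described without a test. Of all counts placed on the 5 copies, Serpina1e held 41.4% ± 4.11 (SD, n = 5) in WT at baseline and 16.8% ± 6.37 in KO. The WT libraries ran from 36.6% to 46.3% and the KO libraries from 9.90% to 26.98%, so the groups did not overlap. Serpina1b held 18.7% ± 1.69 in WT and 32.6% ± 3.33 in KO, the highest mean share of counts among the copies in KO. Divided by exon length, the share of Serpina1e was 42.2% ± 4.08 and 17.8% ± 6.66, and in KO Serpina1c (25.7% ± 2.34) stood above Serpina1b (23.2% ± 2.599). Summed over the 5 copies, the level was 32276 ± 1828 CPM in WT and 14118 ± 2807 in KO.

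**Figure D2:**
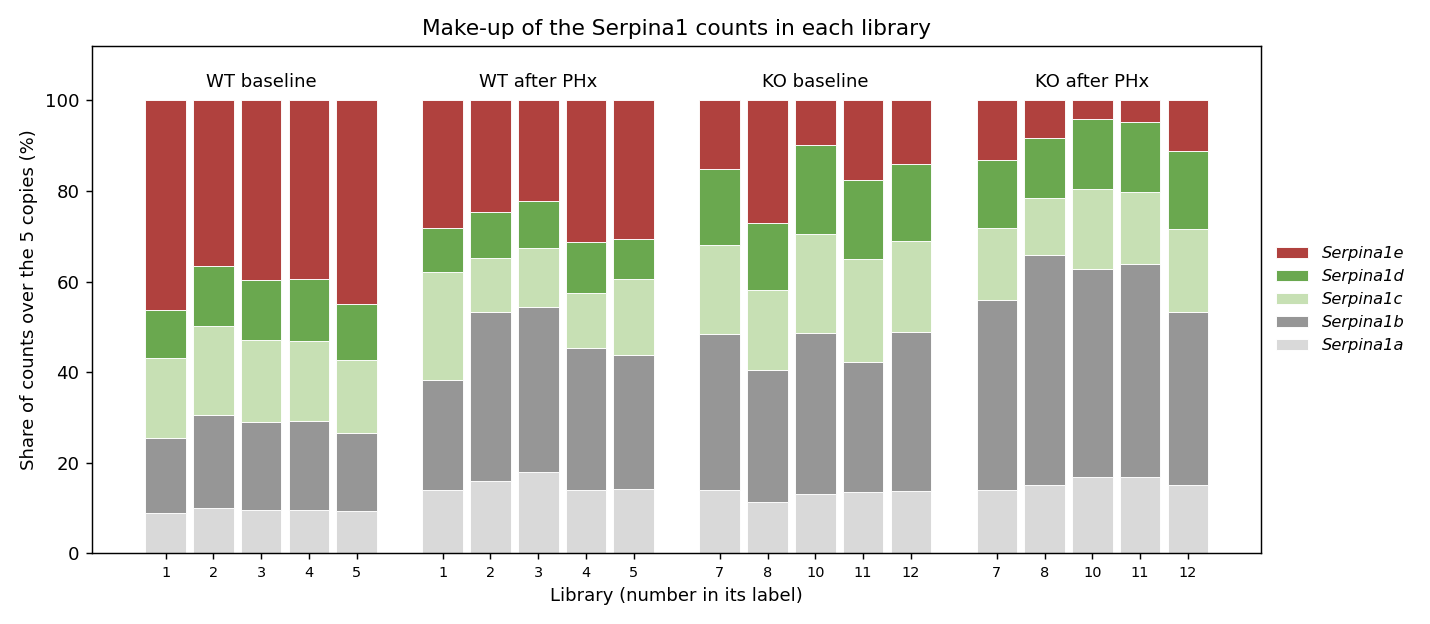
Each bar is 1 library, and its segments give the percentage of the counts over the 5 Serpina1 copies that each copy held. The Serpina1e segment shrinks from 36.6% to 46.3% in WT at baseline to 4.12% to 13.3% in KO after PHx, and the Serpina1b segment widens from 16.6% to 20.6% up to 38.4% to 50.7%.

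After PHx Serpina1a, Serpina1c, Serpina1e and Serpina3k were again lower in KO, and so was Serpina1b. Serpina1e measured 4842, 5596, 2981, 5154 and 4674 CPM in WT mice 1 to 5 and 892, 338, 325, 214 and 1249.95 in KO mice 7, 8, 10, 11 and 12. The groups lay apart by more than 2 times, with a ratio of means of 7.70 and a log2 fold change of -2.94 (SE 0.44, edgeR adjusted p = 8.94e-05). Its share of the copies was 27.3% ± 3.90 in WT and 8.30% ± 3.96 in KO.

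Serpina1a was lower as well (2585 ± 590.3 CPM in WT, 1065 ± 436 in KO, log2 -1.28, SE 0.24, edgeR adjusted p = 0.000831), without overlap, as held for 10% of all genes. Serpina1c (-1.18, SE 0.31, adjusted p = 0.00826), Serpina1b (-0.87, SE 0.24, 0.0135) and Serpina3k (-1.16, SE 0.27, 0.00345) passed the test too. For Serpina3k the WT libraries ran from 11280.1 to 18220.2 CPM and the KO libraries from 4299.7 to 10313, while the libraries of Serpina1b and Serpina1c overlapped. Serpina1d missed the threshold (-0.68, SE 0.27, adjusted p = 0.0751), and passed it with mouse as a random effect in limma voom (-0.78, 0.0366).

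Thus 5 of 9 tested genes were lower and 0 higher in KO after PHx, where 8.2% of all genes were lower, 16% higher and 24.2% called in either direction, and the median was -0.87 against -0.01. In a fit of these 10 libraries alone only Serpina1a and Serpina1e of the 9 were called. Within 40 h and within 48 h (2 against 2 mice, spread taken from the fit over all 20 libraries) Serpina1e had values of -3.99 (SE 0.59, edgeR adjusted p = 0.00121) and -2.998 (SE 0.57, 0.00204). Serpina1a stood at -1.53 at both times (0.00789 and 0.00373). Serpina1c missed the threshold at 40 h (0.0741) and Serpina3k at 48 h (0.058), while Serpina1d passed it at 48 h (-1.07, 0.0426).

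**Figure D3:**
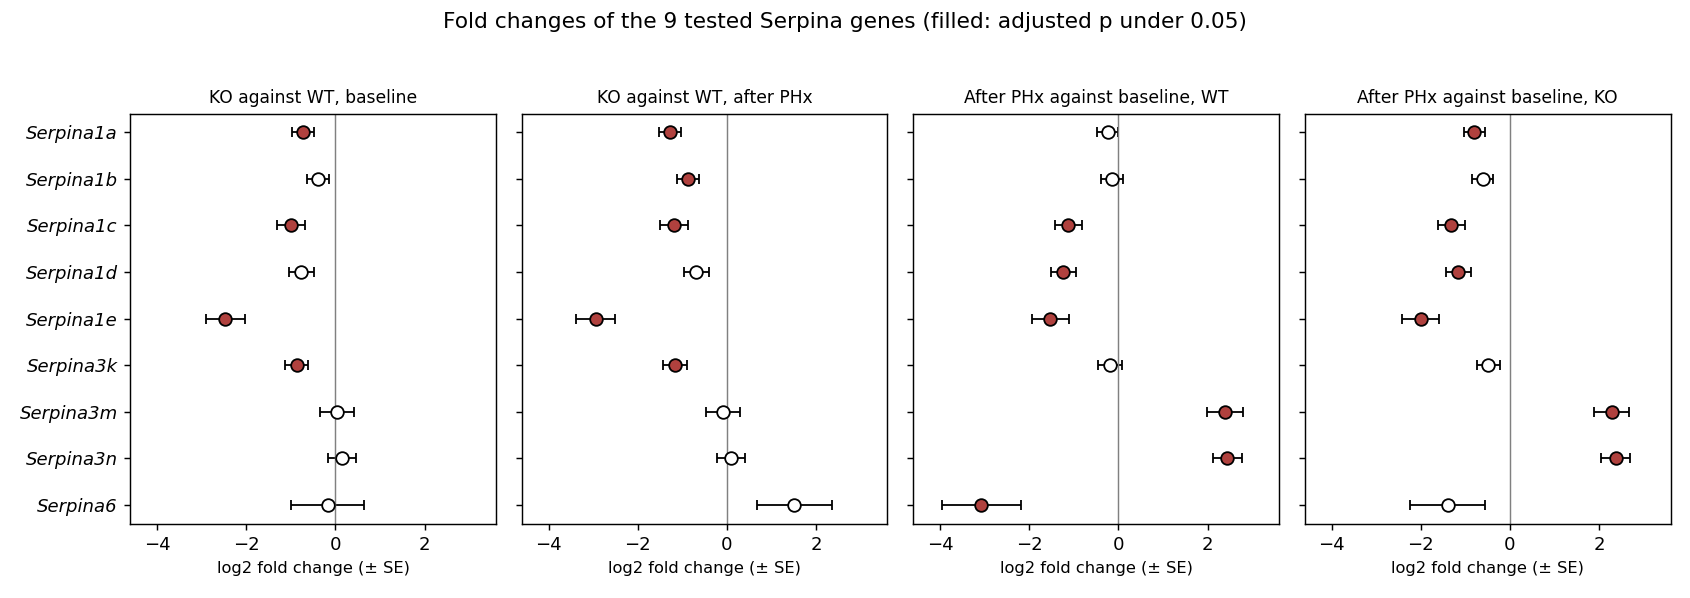
Each panel is 1 comparison, with the edgeR log2 fold change of the 9 tested genes on the horizontal axis, bars of 1 SE, and filled points where the adjusted p was under 0.05. Serpina1e has the lowest value in both KO against WT panels, and Serpina3m and Serpina3n are near 0 there but between 2.28 and 2.44 in the panels for PHx.

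Serpina3n and Serpina3m rose after PHx in both genotypes. Serpina3n, an inhibitor of granzyme B and related proteases, measured 297, 252, 308, 335 and 306 CPM in WT libraries 1 to 5 at baseline and 2185, 1104, 1416, 2061 and 1374 in WT libraries 1 to 5 after PHx. In KO mice 7, 8, 10, 11 and 12 it went from 317, 358, 284, 238 and 469 CPM to 3589, 1249, 1382, 798 and 1618. All libraries after PHx lay above all baseline libraries of their genotype, and 17.8% of all genes had no overlap in WT and 13.9% in KO. On the log2 scale edgeR gave 2.44 in WT (SE 0.33, adjusted p = 8.13e-05) and 2.38 in KO (SE 0.33, 0.000266).

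Serpina3m, a close relative of Serpina3k, measured 164, 272, 257, 267 and 217 CPM in the 5 WT baseline libraries and 637, 1504, 777, 2777 and 493 in the 5 WT libraries after PHx. In KO mice 7, 8, 10, 11 and 12 the values were 207, 252, 246, 236 and 259 at baseline and 1872, 1027, 691, 696 and 1557 after PHx. Again no library after PHx overlapped the baseline, as held for 17.8% of all genes in WT and 13.9% in KO. The edgeR value was 2.39 on the log2 scale in WT (SE 0.40, adjusted p = 0.000552) and 2.28 in KO (SE 0.40, 0.00104).

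Serpina3k, which starts at the same annotated base as Serpina3m, did not pass the test in either genotype (-0.19, SE 0.26, in WT and -0.48, SE 0.26, in KO). The coding sequences of Serpina3k and Serpina3m match at 91.3% of aligned positions, and only Serpina3m rose.

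Several alpha-1-antitrypsin copies fell after PHx. Serpina1e (log2 -1.53, SE 0.42, edgeR adjusted p = 0.0144), Serpina1d (-1.24, SE 0.28, 0.0046) and Serpina1c (-1.13, SE 0.31, 0.0142) fell in WT. No library after PHx overlapped the baseline for any of the 3, as held for 17.8% of all genes in WT. In KO, Serpina1e (-2.004, SE 0.42, adjusted p = 0.00293), Serpina1c (-1.32, SE 0.31, 0.00506), Serpina1d (-1.16, SE 0.28, 0.00553) and Serpina1a (-0.80, SE 0.24, 0.0199) fell. Serpina1b had values of -0.14 (SE 0.24) in WT and -0.61 (SE 0.24, adjusted p = 0.0622) in KO and was not called. Serpina1c, Serpina1d and Serpina1e were lower after PHx than at baseline in 4 of 4 WT and 5 of 5 KO mice with a number in both titles. With mouse as a block, the WT value of Serpina1e was -1.50 with an edgeR adjusted p of 0.065. With mouse as a random effect in limma voom, Serpina1b passed in KO (-0.64, adjusted p = 0.0339).

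Markers of cycling cells moved with PHx as well. All 6 rose in WT and 0 in KO, and their summed level went from 2.06 to 4.42 CPM at baseline to 1.22 to 925 in WT and from 18.8 to 105 to 10.5 to 569 in KO. Of 5 tested neutrophil markers 4 rose in WT and 1 in KO. Of all genes 11.4% rose in WT and 17.5% in KO. In WT the summed hepatocyte markers went from 135570.0 to 156334 CPM at baseline to 81239 to 125078 after PHx, without overlap. In KO they went from 82991 to 111722 to 44098 to 101061, with overlap. Of these 9 markers 2 fell in WT and 1 in KO. Of 3 tested lymphocyte markers 2 fell in each genotype, and the sum of the list went from 2.62 to 5.85 CPM to 0.0355 to 1.44 in WT and from 4.08 to 6.97 to 0.198 to 2.21 in KO. In KO 4 of 9 macrophage markers fell and 1 rose (416 to 545 CPM at baseline, 80.6 to 378 after PHx), and 1 of 7 endothelial markers fell and 1 rose (216 to 252 and 109 to 200.4). Also in KO, 4 of 6 tested cholangiocyte markers rose and 2 of 9 stellate and fibroblast markers fell, while 0 of either list were called in WT. Of all genes 8.68% fell in WT and 12.1% in KO. The part of these shifts in the responses was not tested.

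The response of Serpina6 ranged widely between mice. It measured 212, 123, 186, 157 and 149.8 CPM in WT libraries 1 to 5 at baseline, and 54.2 (30 h), 1.35 and 1.18 (40 h), 4.71 and 36.8 (48 h) after PHx. In KO mice 7, 8, 10, 11 and 12 the baseline values were 130.5, 117, 146, 129 and 212 CPM. After PHx they were 133 in mouse 12 (30 h), 102 and 12.5 in mice 10 and 11 (40 h), and 22.95 and 8.98 in mice 7 and 8 (48 h). Each of the 4 WT and 5 KO mice with a number in both titles was lower after PHx than before, by a log2 of between -7.30 in WT mouse 3 and -0.51 in KO mouse 10, and in KO the groups overlapped.

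The log2 fold change of Serpina6 after PHx was -3.07 in WT (SE 0.89, edgeR adjusted p = 0.0197) and -1.40 in KO (SE 0.84, 0.208). With mouse as a block, where the WT value rests on the 4 numbered mice, edgeR gave -5.30 in WT (SE 0.95, adjusted p = 0.00586) and -2.17 in KO (SE 0.72, 0.0500079). With mouse as a random effect limma voom gave -4.56 in WT (adjusted p = 0.00164) and -2.21 in KO (0.0278). Without the WT library of mouse 4 after PHx the WT value was -2.77 and missed the threshold (0.0552). KO against WT after PHx was 1.51 (SE 0.84, adjusted p = 0.204) with times pooled. With a term for time it was called higher in KO (2.14, SE 0.56, edgeR adjusted p = 0.00842), and the KO response was called too (-1.57, SE 0.52, 0.0261). It was 5.50 within 40 h (SE 0.97, 0.00283) and -0.38 within 48 h (SE 0.78, 0.756), each from 2 mice a genotype.

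**Figure D4:**
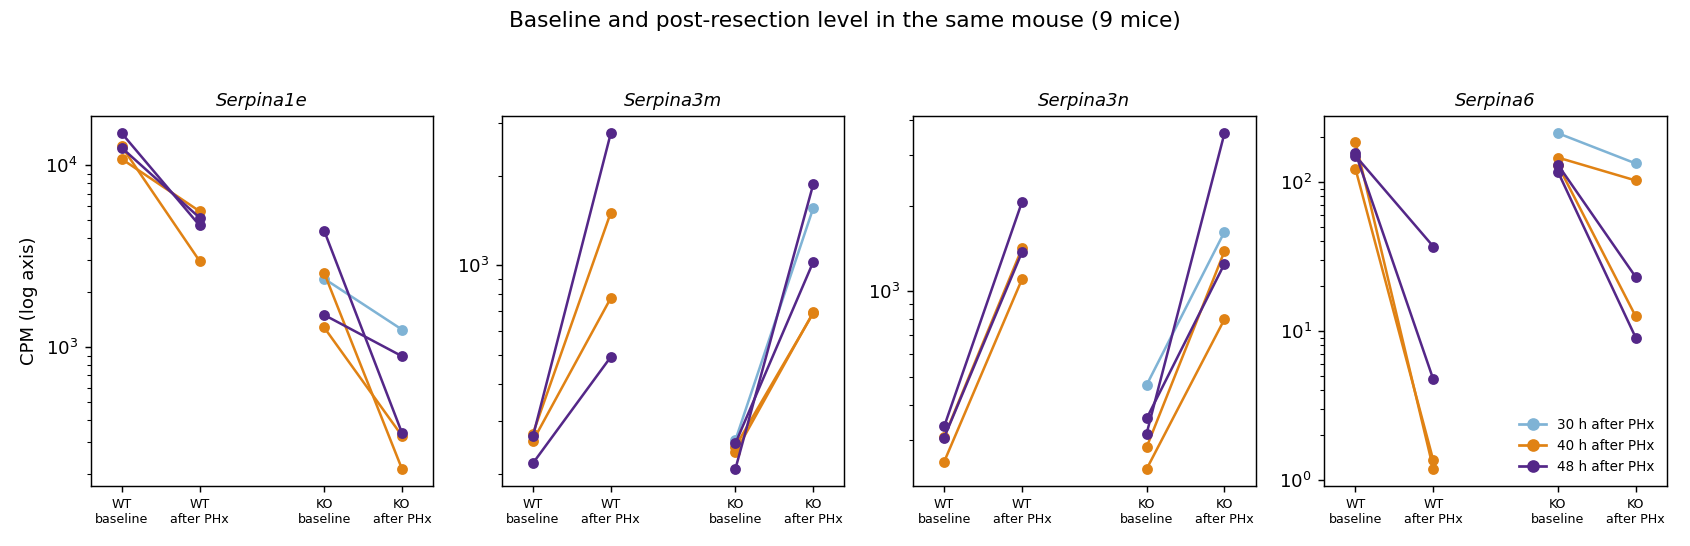
Lines join the baseline and post-PHx CPM of the same mouse, on a log axis, for 4 WT and 5 KO mice, coloured by the hours after PHx. Serpina3m and Serpina3n rise in all 9 mice and Serpina1e and Serpina6 are lower in all 9, with the 2 WT mice at 40 h at 1.35 and 1.18 CPM of Serpina6.

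Counting all 9 tested genes, 2 rose and 4 fell after PHx in WT, where 11.4% of all genes rose, 8.68% fell and 20.1% were called in either direction. In KO 2 rose and 4 fell, where 17.5% of all genes rose, 12.1% fell and 29.5% were called. The 2 comparisons name partly different genes, since Serpina6 was called in WT and Serpina1a in KO. The call of Serpina1a was lost without KO baseline library 12 or KO library 7, 8 or 11 after PHx (edgeR adjusted p up to 0.0666), with no filter, and in a fit of the KO libraries alone (0.104). Without WT library 4 after PHx, Serpina6 and Serpina1c (adjusted p = 0.0621) lost their calls in WT, which left 2 lower. The medians of the 9 were -0.24 in WT and -0.80 in KO, against 0.04 and 0.10 for all genes.

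The comparisons share groups, so the values above are set side by side and their likeness is not tested. With edgeR, 0 of the 9 genes passed the test of the difference between the responses, in which 57 of all genes (0.389%) were called, 0.164% higher and 0.225% lower. The differences, KO response minus WT response, ran from -0.56 for Serpina1a (SE 0.34, edgeR adjusted p = 0.494) to 1.68 for Serpina6 (SE 1.17, 0.563). For Serpina3n the difference was -0.07 (SE 0.44) and for Serpina3m -0.11 (SE 0.54). In the same comparison the acute phase genes Saa1 (-4.22, SE 0.88, adjusted p = 0.0418) and Saa2 (-5.13, SE 0.94, 0.0176) were called lower, so their responses were smaller in KO. Mean Saa2 went from 14.3 to 3330.2 CPM in WT and from 102.6 to 685 in KO.

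Serpina4-ps1 is annotated as an unprocessed pseudogene, a gene copy that no longer encodes a protein, and lies on the plus strand at chr12:104080649-104086724 (mm10). It measured 93.3, 253, 216, 86.9 and 257 CPM in WT libraries 1 to 5 at baseline and 18.2, 9.39, 16.4, 4.15 and 4.50 in WT libraries 1 to 5 after PHx. In KO mice 7, 8, 10, 11 and 12 it measured 9.76, 74.9, 4.14, 15.7 and 0.423 CPM at baseline. After PHx the KO libraries held 2, 0, 1, 5 and 4 counts of it, or 0.0853 ± 0.0772 CPM (SD, n = 5). All 5 WT baseline libraries were above all KO baseline libraries, and all WT above all KO libraries after PHx. Of all genes 27.9% had no overlap between genotypes at baseline and 10% after PHx, in either direction.

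The ratio of its group means, WT over KO, was 8.63 at baseline. KO mouse 8 stood apart, with 74.9 CPM where the other 4 KO mice had at most 15.7. Without it the KO mean was 7.52 CPM and the ratio 24.1. The same library was the highest of the KO baseline group in Serpina1e (4375 CPM) and Serpina3k (13983 CPM). As the gene was picked for its fall, these values are a description.

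The interval from the first to the last Serpina gene spans 799.5 kb (chr12:103614786-104414329, mm10) and holds 42 identifiers, 28 of them with Serpina symbols. Besides the 10, it has 18 other Serpina genes, of which 11 passed the filter and 2 had no count in any library. At baseline 2 of the 11 were lower in KO and 0 higher, where 4.89% of all genes were lower and 11.1% higher. These were Serpina12, which encodes the adipokine vaspin (81.1 ± 6.27 CPM in WT, 23.6 ± 12.03 in KO, log2 -1.78, SE 0.46, edgeR adjusted p = 0.0115), and Serpina11 (33.4 ± 3.30 and 17.6 ± 2.94 CPM, -0.92, SE 0.23, 0.00932). Both lie between Serpina1e and Serpina4-ps1. Serpina10, the inhibitor that works with protein Z, was at 211 ± 22.8 CPM in WT and 160.0 ± 30.3 in KO and was not called (-0.40, SE 0.55).

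After PHx 3 of the 11 were lower in KO and 3 higher, where 8.2% of all genes were lower and 16% higher. Serpina12 (-2.30, adjusted p = 0.00166), Serpina11 (-1.16, 0.00115) and Serpina9 (-3.23, 0.0378, at 0.561 ± 0.724 CPM in WT and 0.0651 ± 0.0840 in KO) were lower. Serpina3c (3.51, adjusted p = 0.00245), Serpina3f (1.99, 0.0173) and Serpina3i (2.53, 0.0458) were higher, at means of 2.90, 7.20 and 6.43 CPM in KO and large spread between mice (SD 3.43, 8.06 and 11.6). Serpina3g (8.39 ± 2.19 CPM in KO at baseline), Serpina5 and Serpina3e-ps had adjusted p-values from 0.0551 to 0.86 in both KO against WT comparisons.

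After PHx against baseline, 2 of the 11 rose and 3 fell in WT, and 4 rose and 3 fell in KO, where 11.4% of all genes rose and 8.68% fell in WT and 17.5% and 12.1% in KO. Serpina3e-ps, a pseudogene in the Serpina3 run, rose (2.84 in WT and 2.11 in KO, edgeR adjusted p of 9.55e-05 and 0.00112), as did Serpina3i (3.88 and 4.07, adjusted p of 0.0199 and 0.00577). Serpina3c (4.67, 0.00116) and Serpina5 (2.71, 0.0363) rose in KO and had values of -0.38 and 1.78 in WT, not called. Serpina12 (-2.57 and -3.08), Serpina11 (-0.68 and -0.93) and Serpina9 (-2.74 and -4.31) fell in both genotypes, with edgeR adjusted p up to 0.0422.

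**Figure D5:**
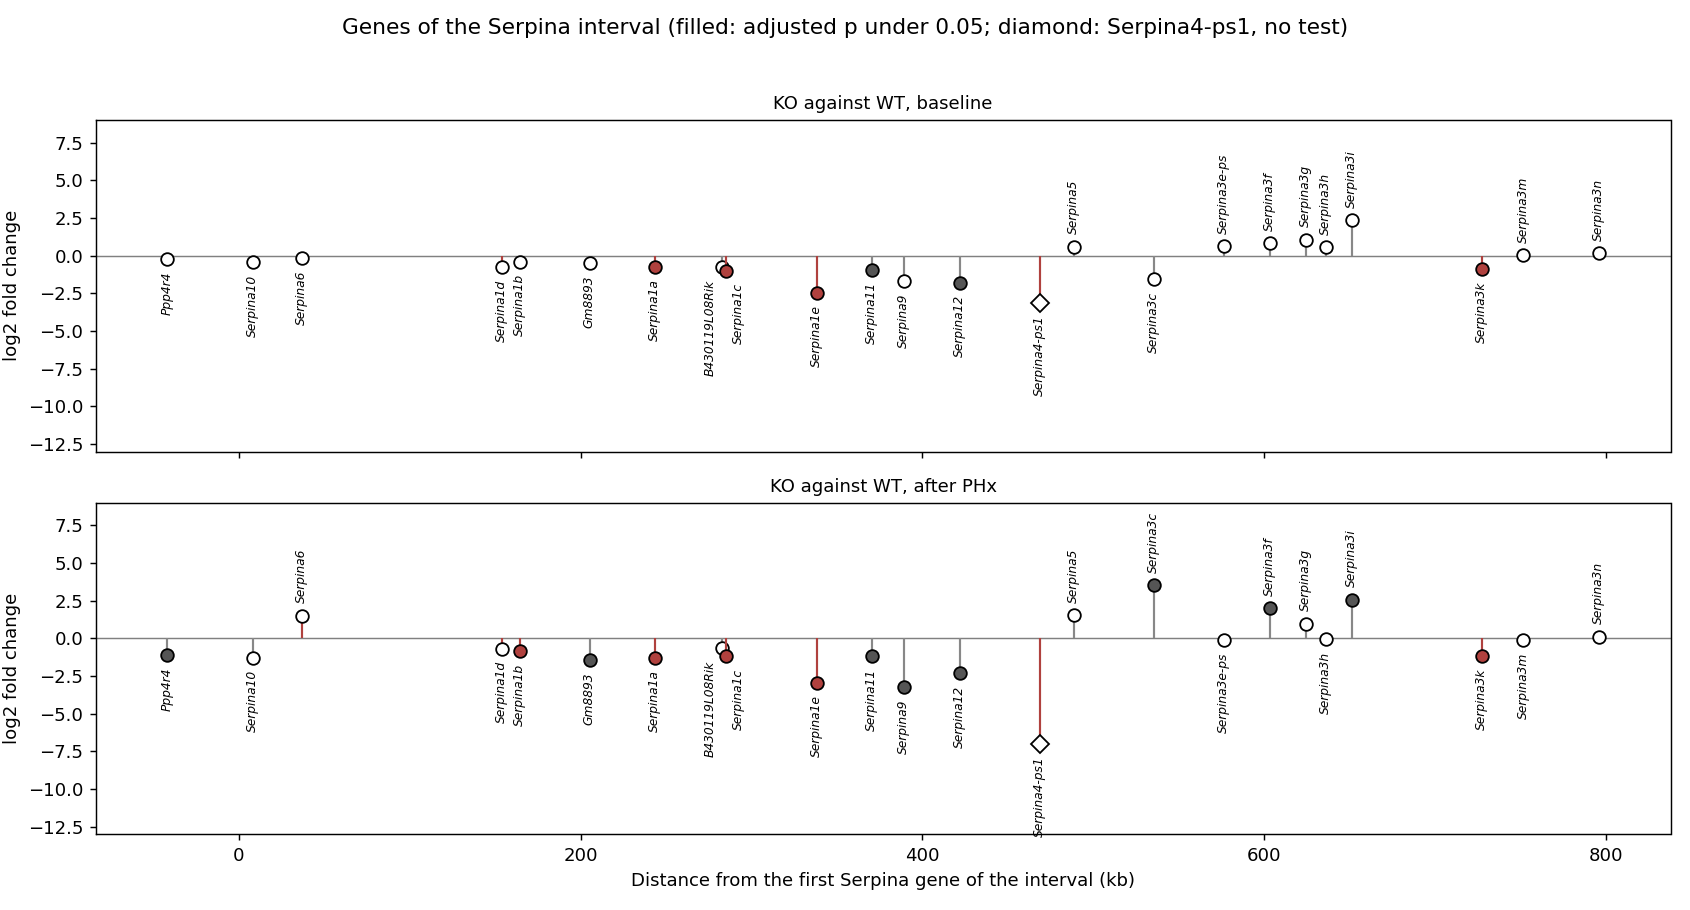
The horizontal axis gives distance in kb from the first Serpina gene, and the vertical axis the edgeR log2 fold change of KO against WT at baseline (top) and after PHx (bottom), in red for the 10 genes and grey for others. The called genes from Serpina1b to Serpina12 all lie below 0, while Serpina3c, Serpina3f and Serpina3i were called above 0 after PHx. None of these 3 was called at baseline, where Serpina3c lies at -1.54.

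Of 14 other genes inside the interval 10 had no count, and 2 passed the filter. The pseudogene Gm8893, which lies within the annotated span of Serpina1b, was lower in KO after PHx (61.4 ± 17.8 CPM in WT, 22.5 ± 16.7 in KO, log2 -1.45, SE 0.35, edgeR adjusted p = 0.00473). B430119L08Rik is antisense to Serpina1c, and since the strand setting is not given its reads cannot be told apart from those of Serpina1c. Of the 5 nearest tested genes on each side, 4 were higher and 1 was lower in KO at baseline, where 11.1% of all genes were higher and 4.89% lower. Gsc, a homeobox gene 56.9 kb beyond Serpina3n, had 0 counts in all 5 WT baseline libraries and 569 in KO (4.35 ± 1.93 CPM), at least 146-fold higher against a floor of 3 counts over the group. Ifi27l2b (2.24 ± 1.01 CPM in WT, 77.8 ± 12.4 in KO), Ifi27 (57.3 ± 6.41, 141 ± 22.8) and Ifi27l2a (1.97 ± 0.872, 9.14 ± 2.44) on the other side were higher, and Dicer1 was lower (46.9 ± 2.78, 34.05 ± 3.39).

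After PHx 5 of these 10 flanking genes were higher in KO (Gsc, Ifi27, Ifi27l2b, Ddx24 and Gm28875) and 2 were lower (Dicer1 and Ppp4r4), where 16% of all genes were higher and 8.2% lower. Genes next to the interval did not all share the direction of the Serpina1 copies. Ifi27l2b was also called in the difference of responses (-3.64, edgeR adjusted p = 0.00952).

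Serpins outside the chromosome 12 cluster were counted in the same way. Their summed level was 5989.7 to 6269 CPM in WT and 4189.9 to 5850.1 in KO at baseline, without overlap, and 2711 to 4213 and 1528 to 3603 after PHx. Of 40 such symbols 15 passed the filter, and 3 were higher and 0 lower in KO at baseline, where 11.1% of all genes were higher and 4.89% lower, among them Serpina7, the carrier of thyroxine (47.6 ± 9.74 CPM in WT, 196 ± 106 in KO), and Serpinb1a, an intracellular elastase inhibitor (2.596 ± 1.27 and 13.04 ± 4.05). After PHx 4 were higher and 2 lower (16% and 8.2% of all genes). The lower ones were Serpinc1, antithrombin (1571 ± 308 and 872 ± 467 CPM, log2 -0.85, edgeR adjusted p = 0.0365), and Serpinf2, alpha-2-antiplasmin (711 ± 84.7 and 410 ± 214, -0.79, 0.0322). Serpinb1a (6.20, adjusted p = 2.2e-05) and Serpinb6a (2.16, 8.17e-06) had the highest values.

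Of 23 regulators of liver and acute phase genes, 2 were higher and 4 lower in KO at baseline, where 11.1% of all genes were higher and 4.89% lower. Among the lower ones were Ghr, the growth hormone receptor (811 ± 54.5 CPM in WT, 284 ± 47.4 in KO, log2 -1.51, edgeR adjusted p = 0.00355), Cebpa (455 ± 92.6 and 247 ± 42.2, -0.88, 0.019) and the glucocorticoid receptor Nr3c1 (98.9 ± 9.71 and 63.5 ± 14.7, -0.64, 0.0294). Socs3, a feedback inhibitor of cytokine signalling (2.44, adjusted p = 0.00632), and the female-biased repressor Cux2 (3.18, 0.0355) were higher. After PHx Ghr (-1.02, 0.0264) was lower, and Cux2 (2.77, 0.0304) and Osmr, a receptor subunit for oncostatin M (1.42, 0.0339), were higher. Whether any of these moved Serpina levels was not tested.

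On the acute phase list of 23 genes, 13 rose and 0 fell after PHx in WT, where 11.4% of all genes rose and 8.68% fell. In KO 9 rose and 1 (Crp) fell, where 17.5% of all genes rose and 12.1% fell. The highest in WT were Lcn2 (8.96, edgeR adjusted p = 5.87e-06) and Saa2 (7.86, 9.02e-06), and in KO the metallothioneins Mt2 (5.53, 0.00222) and Mt1 (5.03, 0.00329). In the difference of responses 4 of the 23 were lower in KO and 0 higher (0.225% and 0.164% of all genes). At baseline 5 were higher in KO and 0 lower (11.1% and 4.89% of all genes), with A2m at 0.151 ± 0.193 CPM in WT and 8.83 ± 7.67 in KO and Lcn2 at 5.05 ± 4.30 and 51.2 ± 42.3. After PHx 1, A2m, was higher in KO and 7 were lower (16% and 8.2% of all genes), among them Apcs (-2.46, adjusted p = 6.14e-06) and Saa2 (-2.28, 0.0155).

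Of 20 proteases and handling factors, 16 passed the filter. Cela1, an elastase, was lower in KO at baseline (31.7 ± 6.46 CPM in WT, 8.43 ± 1.39 in KO, log2 -1.91, edgeR adjusted p = 2.01e-05), as was Sel1l, a factor of the degradation of misfolded secretory proteins (254 ± 65.4 and 159 ± 31.1, -0.68, 0.0185). Sorl1, a sorting receptor of the LDL receptor family, was higher at baseline (1.04 ± 0.367 and 11.5 ± 2.63, 3.46, 1.32e-05) and after PHx (2.99, 3.53e-05). Calr, a chaperone of the endoplasmic reticulum, was lower after PHx (-0.97, 0.00187). The other 12 were not called in either comparison of genotypes. Of all genes 11.1% were higher and 4.89% lower in KO at baseline, and 16% and 8.2% after PHx.

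The genes whose log2(CPM + 1) followed each member most closely over the 20 libraries are listed as a description, since all libraries share the group differences. For Serpina1e these were Mup21 (Pearson r = 0.976), Mup6 (0.971), Mup3 (0.971), Gm13775 (0.955) and Mup17 (0.952), and the Mup genes encode the major urinary proteins made by male liver. Of 11 male-biased liver genes, which include Mup21, 7 were lower in KO at baseline and 8 after PHx, where 4.89% and 8.2% of all genes were lower. Their summed level was 21836 to 30854 CPM in WT and 5413 to 9527 in KO at baseline, and 9 of 11 fell after PHx in each genotype, where 8.68% of all genes fell in WT and 12.1% in KO. With group means subtracted, Mup3 still stood among the 5 closest (0.830), behind Socs7 (0.861), Tmem33 (0.846), Grsf1 (0.838) and Cnbp (0.831).

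For Serpina6 the closest were Inmt (0.966), Cyp4f14 (0.945), Cyp2c54 (0.929), Cyp2c29 (0.923) and Nat8f1 (0.917). With group means subtracted they were Cyp2c29 (0.957), Cyp2c54 (0.938), Cyp1a2 (0.930), Glul (0.926) and Inmt (0.924). The groups after PHx hold livers of 30 h, 40 h and 48 h, so differences within them mix mouse and time. For Serpina3n the closest were Serpina3e-ps (0.967), Rad18 (0.922), Qrsl1 (0.906), Lcn2 (0.906) and Cd2bp2 (0.901). For Serpina3n 99.8% of 100-base windows occur in no other gene's transcript, and the gene that shares the most of the others is Serpina3e-ps. Whether read placement adds to this likeness was not tested. With group means subtracted, 4930524J08Rik (0.822) and Serpina3e-ps (0.820) led, followed by Rhbdl3 (0.806), Yeats4 (0.782) and Sim2 (0.764).

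For Serpina4-ps1 the closest were Acbd5 (0.935), Gm37824 (0.933), its neighbour Serpina12 (0.933), Mup-ps13 (0.927) and the male-biased fatty acid elongase Elovl3 (0.925). Within groups the closest were Gm11454 (0.817), Mef2c (0.810), Gm37824 (0.759) and Zfp790 (0.724), and an identifier without a symbol (0.713). Among the members themselves, the 5 Serpina1 copies correlated at 0.83 to 0.96 over all libraries and at 0.49 to 0.94 within groups. Serpina1a, Serpina1b and Serpina1d moved most closely together within groups (0.89 to 0.94), and Serpina1e stood at 0.49 to 0.60 with the other 4 copies and at 0.77 with Serpina3k. Serpina3m and Serpina3n correlated at 0.89 over all libraries and at 0.41 within groups.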

How the data were processed

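Per the design text, libraries were made with a TruSeq kit from 1000 ng of RNA (RIN above 8) and sequenced in pairs on a NovaSeq 6000, and uniquely mapped reads on mm10 were counted. The design text names fastp 0.20.0 for trimming and the submitters' processing notes name Trimmomatic 0.36, both with FastQC 0.11.5. Aligner, counter, strand setting and annotation release are not given in the sources used here. The authors deposited raw counts per gene, one file per library.

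Counts were scaled by TMM, filtered with filterByExpr and tested with edgeR 4.0.16 (R 4.3.3), with 4 group means over 20 libraries and Benjamini-Hochberg adjusted p under 0.05 as a call. The script was tested on simulated counts with known changes. limma 3.58.1 and DESeq2 1.42.0 served as alternatives. Symbols came from GENCODE M21 (46005 of 46603 identifiers). 1 regulator is not reported here. Members and gene lists were chosen with earlier results of these data known. The rule for named genes took the 10 members, other Serpina genes of the interval with a mean of at least 1 CPM in any group, neighbours, regulators and proteases called in a KO against WT comparison, the 2 highest and 2 lowest called serpins elsewhere and acute phase genes, and, by Pearson r of log2(CPM + 1) among genes tested, the 5 most like 4 of the members.

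The labels tie 9 mice to both stages, and WT baseline library 1 has no mouse number in its title. Residuals of the same mouse correlated at 0.016 to 0.078 in WT (mean 0.037) and -0.055 to 0.152 in KO (mean 0.069). Those of different mice ran from -0.070 to 0.078 in WT (mean -0.007) and -0.234 to 0.259 in KO (mean -0.018). The same-mouse values thus lay inside the range of different mice.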

Additional observations from a re-analysis of the deposited data

Results flagged for a closer look

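In 3 of 40 groups of 5 libraries 1 library stood apart by Dixon's ratio (limit 0.71), which chance does in about 1 in 20 groups. WT library 2 after PHx (40 h) was the highest of its group in Serpina1a (3625 CPM, ratio 0.825) and in Serpina1b (8504 CPM, ratio 0.773). KO baseline library 8 was the highest of its group in Serpina4-ps1 (74.9 CPM, ratio 0.794).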

How the results depend on the processing

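Across the 9 tested members, 800 values kept direction and side of the threshold, 45 lost a call, 14 gained one and 32 uncalled values changed sign. For Serpina4-ps1, which has no test, 94 values stayed within 1 SE and 4 moved further, all with the same sign. Scaling by library size alone gave 3521 genes higher and 113 lower in KO at baseline, 3897 and 296 after PHx, 3796 and 582 for PHx in WT, 4059 and 961 for PHx in KO, and 9 higher in the difference. The share of calls that were higher went from 69.5% to 96.9%, 66.1% to 92.9%, 56.8% to 86.7%, 59.1% to 80.9% and 42.1% to 15.8%. Members lower at baseline were then 1, as with no filter (345 genes lower at baseline, 14 higher in the difference). Only the samples compared gave 2846 and 2396 at baseline, 1127 and 218 after PHx with 2 members lower, and 1052 lower for PHx in KO. A time term gave 1270 lower at baseline, 2257 lower after PHx with 1 member (Serpina6) higher, 3140 lower for PHx in KO, and 179 and 325 in the difference. Within 40 h 1263 were higher, 686 lower and 1 member higher. DESeq2 gave 192 and 184 in the difference.

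With mouse as a replicate block, genes higher after PHx were 889 in WT and 1575 in KO, and 2 and 5 were called in the difference. As a random effect these were 904 in WT, and 7 and 10 in the difference. Beyond the calls given above, neither fit changed a member's call.

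Leaving out 1 library gave 309 to 724 genes lower and 1 to 3 members lower at baseline, 757 to 2151 lower after PHx, 755 to 1363 lower (2 to 4 members) for PHx in WT, 1098 to 2633 lower (3 to 5 members) for PHx in KO, and 6 to 412 higher and 15 to 296 lower in the difference.

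Signs turned as follows. With library size alone, Serpina1b (0.067) and Serpina6 (0.31) turned at baseline, Serpina3m (0.28) after PHx, Serpina1a (0.11), Serpina1b (0.20) and Serpina3k (0.16) in the WT response and Serpina1d (-0.090) in the difference. Serpina3m after PHx was 0.13 with a time term and 0.11 with the random effect, and Serpina3n -0.049 and -0.050 and -0.21 within 40 h. Serpina6 was -0.38 within 48 h. In the difference Serpina3m was 0.10 with a time term, 0.015 with the block and 0.050 with the random effect. Over the fits that left out 1 library, Serpina3m ran from -0.078 to 0.14 at baseline, from -0.30 to 0.44 after PHx and from -0.39 to 0.34 in the difference, and Serpina3n from -0.0032 to 0.25, -0.33 to 0.24 and -0.54 to 0.083. In the difference Serpina1c ran from -0.50 to 0.031 and Serpina1d from -0.24 to 0.21. Library size alone moved the median of all genes as well, to 0.45 at baseline, 0.37 after PHx, 0.40 in the WT response and -0.095 in the difference. Relative to the median of all genes, 7 of the 9 members were below it under either scaling in each comparison of 2 groups. The cause of these changes was not tested.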
